A study of Mus musculus with 12 samples.

Results

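The solute carrier (Slc) genes encode membrane transporters, and they were taken here as every gene whose symbol reads Slc, a family number, the letter a and a member number. The deposited list of polyA sites (PASs) holds 305 such genes among 16627 genes in all, with 968 of its 55813 distinct PASs. The list accompanies 12 3′READS+ libraries, a method that sequences the 3′ ends of polyadenylated transcripts, from hippocampal mini-slices of C57BL/6 wild-type mice aged 3 months by the sample labels, with the dentate gyrus trimmed away. Chemical LTP slices received 50 uM forskolin for 10 min, with 30 mM KCl and 10 mM Ca2+ added for the later part, and control slices received the vehicle, DMSO at 0.2%, over the same 10 min. Tissue was collected 1 hr or 3 hr later, with 3 libraries in each of the 4 groups (control 1 hr, control 3 hr, LTP 1 hr and LTP 3 hr), and LTP and control slices came from the same animals. The mice were male, and by the study's methods libraries were made only from samples in which qPCR had shown Arc and the short Homer1 isoform to rise after LTP. The slices hold neurons, glia and vessel cells together.

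Every value below describes where the PASs of Slc genes lie, and none describes how often a PAS was used. The columns of read numbers in the table carry names that match no sample label, so they were not used, and LTP and control slices were not compared. A PAS counts the same whether many reads or few stand behind it, and whether it came from 1 library or from all of them. By the study's methods, a library of the later control group stood apart in a clustering of PAS levels and was left out of the study's comparisons of PAS usage. Which PASs of the list rest on that library was not tested. The number of replicates therefore does not enter any value, and the intervals given cover counting error only.

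Solute carriers move ions, neurotransmitters, sugars, amino acids, metals and metabolites across the plasma membrane and the membranes of vesicles and organelles. In the hippocampus they are known for clearing glutamate and GABA from the synapse, filling synaptic vesicles, setting the chloride gradient on which inhibition depends, and feeding neurons and glia. A gene with several PASs can yield mRNAs with longer or shorter 3′UTRs, and a PAS in an intron can yield a truncated transcript with another coding end.

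Of the 968 Slc PASs, 564 (58.3%, 95% Wilson interval 55.1% to 61.3%) carried the label exon3, read here as the 3′-most exon. The other genes of the list had 55.6% of their PASs under that label. The intronic labels held 238 Slc PASs as intron_Comp and 28 as intron_Skip, which by their names read as composite and skipped terminal exons. The label UA, read as upstream antisense since all 86 of these Slc PASs are named on the strand opposite to their gene, made up 8.88% of the Slc PASs (7.25% to 10.8%) and 7.08% of those of other genes. PASs beyond the annotated end, labelled exon3ext, made up 4.34% (3.23% to 5.81%) against 6.09%. Several PASs can come from the same gene and are not independent, so intervals of PAS shares, here and below, may be too narrow. Counted by gene, a UA PAS was listed for 16.4% of Slc genes (12.7% to 21.0%) and 13.8% of other genes. An exon3ext PAS was listed for 8.85% of Slc genes (6.16% to 12.6%) and 12.3% of other genes. The remaining labels, exon53, exonI and exon5, held 3, 5 and 2 Slc PASs. The exon53 label, read here as the exon of single-exon genes, had 0.310% of the Slc PASs and 2.20% of the others. No test was run between Slc genes and other genes, here or below, and the values of other genes are given as a background.

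**Figure D1:**
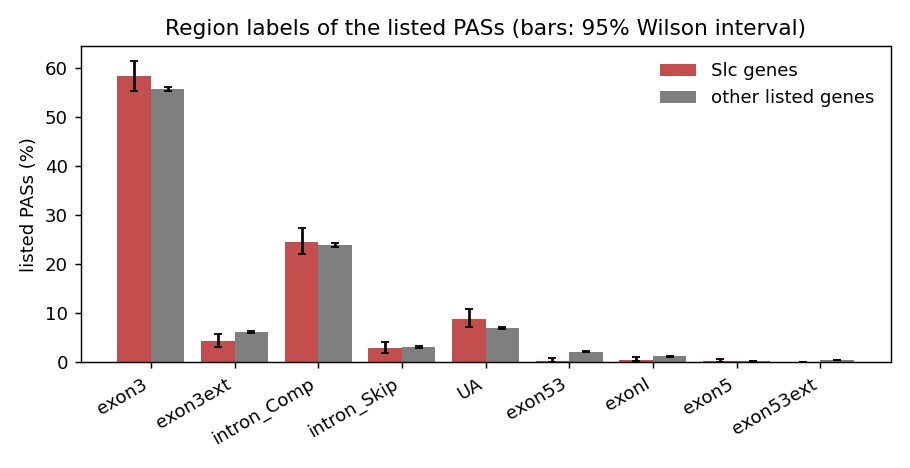
Share of listed PASs (y axis, percent) under each region label (x axis) for the 305 Slc genes and for all other listed genes, with 95% Wilson intervals. The exon3 label holds 58.3% of the Slc PASs and intron_Comp 24.6%, and both bars lie near those of the other genes.

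A single PAS was listed for 113 Slc genes (37.0%), against 32.9% of other genes. A further 66 had 2 PASs, 40 had 3, and 65 (21.3%) had 5 or more, against 23.7% of other genes with 5 or more. The median was 2 PASs per gene in both sets, and the means were 3.17 for Slc genes and 3.38 for others. An exon3 PAS as the sole entry was found in 94 Slc genes (30.8%, against 29.1%). In 28 Slc genes (9.18%, against 9.34%) no exon3 PAS was listed at all.

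**Figure D2:**
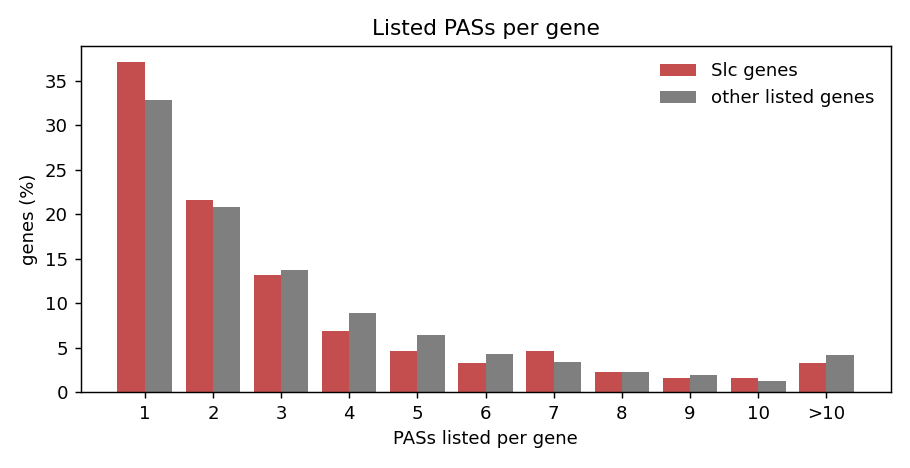
Percent of genes (y axis) by the number of PASs listed per gene (x axis, the last bar pooling genes with over 10) for Slc genes and all other listed genes. The single-PAS bar is at 37.0% for Slc genes and 32.9% for the others.

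The 305 genes fall in 47 family numbers, and 6 of these families have 1 listed gene. The largest is Slc25, the mitochondrial inner-membrane carriers, with 44 genes, followed by Slc22, the organic cation and anion transporters, with 18, and Slc6, the sodium- and chloride-dependent neurotransmitter transporters, with 16. All 4 listed Slc29 genes, the equilibrative nucleoside transporters, had a single PAS each. Of the 305 symbols, 4 belong to genes that are no carriers themselves although the symbol rule takes them, namely Slc9a3r1 and Slc9a3r2, regulators of sodium/proton exchange, Slc4a1ap, an adaptor protein, and Slc7a6os, a gene named for lying opposite Slc7a6. These hold 1, 2, 2 and 1 PASs. They were counted with the family in their name. The symbols Slc24a6 and Slc9a10 are older names that RefSeq gives as synonyms of Slc8b1 and Slc9c1.

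The families grouped as neurotransmitter transporters (Slc1, Slc6, Slc17, Slc18 and Slc32), although some of their members carry other solutes, numbered 32 genes with 92 PASs. Of the 28 with an exon3 PAS, 16 (57.1%) had 2 or more, against 48.4% of all Slc genes with an exon3 PAS. An intronic PAS was listed for 11 of the 32 (34.4%), against 37.4% of all Slc genes. Slc1a2, the main astrocytic glutamate transporter, had a single exon3 PAS on the plus strand of chromosome 2 at position 102630936 (mm9, as are all positions here). Its astrocytic relative Slc1a3 had 3 PASs on the minus strand of chromosome 15. These were an intron_Comp PAS at 8650057, an intron_Skip PAS at 8630892 and an exon3 PAS at 8584124, so that the intronic PASs lay 65933 nt and 46768 nt upstream of the exon3 PAS. Slc1a1, a neuronal glutamate transporter, had 2 exon3 PASs 1322 nt apart.

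The vesicular glutamate transporters Slc17a6 and Slc17a7 had a single exon3 PAS each, at 58926480 and 52431509 on the plus strand of chromosome 7. The third member of the set, Slc17a8, had 2 exon3 PASs on chromosome 10, 1985 nt apart. Slc32a1, which loads GABA and glycine into vesicles, had 2 exon3 PASs only 64 nt apart. Slc18a2, the vesicular monoamine transporter, had 3 exon3 PASs over 1980 nt and an intron_Comp PAS 15416 nt upstream. Slc5a7, the choline transporter of cholinergic terminals, which is counted below with its Slc5 family, had 2 exon3 PASs 2656 nt apart.

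Slc6a11, the GABA transporter GAT3, had 15 PASs on the plus strand of chromosome 6. Of these, 5 were intron_Comp PASs between 115367 nt and 92717 nt upstream of the first exon3 PAS, and 10 were exon3 PASs within 2084 nt. The exon3 PASs of Slc6a11 formed a proximal set of 5 within 310 nt and a distal set of 5 starting at 1374 nt, with a gap of 1064 nt between them. Slc6a9, a glycine transporter, had a single exon3 PAS, and Slc6a17, a vesicular amino acid transporter, had 2 exon3 PASs 1627 nt apart. Slc6a13, another GABA transporter, had the largest exon3 span of all Slc genes. Its 2 exon3 PASs, at 121252848 and 121287736 on chromosome 6, lay 34888 nt apart, and an intron_Comp PAS lay 466 nt downstream of the first of them. It was the sole Slc gene with an intronic PAS downstream of an exon3 PAS, while the other 241 intronic PASs of genes with an exon3 PAS all lay upstream of the first one.

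The inorganic ion transporters were the largest role class, with 61 genes and 209 PASs. An intronic PAS was listed for 24 of them (39.3%, against 37.4% of all Slc genes). Intronic PASs made up 41.8% of their intronic and exon3 PASs, against 32.0% over all Slc genes. The cation-chloride cotransporters set neuronal chloride. Slc12a5, the neuronal potassium-chloride cotransporter KCC2, had a single exon3 PAS at 164825227 on the plus strand of chromosome 2. Slc12a2, the sodium-potassium-chloride cotransporter NKCC1, had 2 exon3 PASs 1813 nt apart.

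Among the bicarbonate transporters, Slc4a4, which cotransports sodium and bicarbonate in astrocytes, had 6 intronic and 4 exon3 PASs on the plus strand of chromosome 5. Its first PAS, an intron_Skip PAS at 89317692, lay 347124 nt upstream of the first exon3 PAS, and the exon3 PASs spanned 3862 nt. Slc4a10 had an intron_Comp PAS and a single exon3 PAS. Slc4a3 had 2 exon3 PASs 2278 nt apart. Slc4a8 had exon3 PASs at 100647239 and 100654400 on chromosome 15, 7161 nt apart, with no PAS listed between them.

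The sodium/calcium exchangers, which extrude calcium after activity, held 3 genes with 15 PASs. Slc8a1 had 3 exon3 PASs within 494 nt, and Slc8a2 had an exon3 PAS followed by an exon3ext PAS 552 nt downstream. Slc8a3 had 10 PASs, with 2 UA PASs, 4 intron_Comp PASs and 4 exon3 PASs. The intron_Comp PASs of Slc8a3 lay between 114965 nt and 107992 nt upstream of the first exon3 PAS, and its exon3 PASs spanned 1376 nt, with 3 of them within 88 nt of each other. Slc24a2, a potassium-dependent sodium/calcium exchanger, had a single exon3 PAS. Its family member Slc24a5 had 11 PASs, among them 3 UA PASs, 6 intron_Comp PASs within 5435 nt upstream of the first exon3 PAS and 2 exon3 PASs 244 nt apart.

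The sodium/proton exchangers included Slc9a7 of intracellular membranes, on chromosome X. It had 4 intron_Comp PASs, the first 184999 nt upstream of the first exon3 PAS, and 3 exon3 PASs within 58 nt. Slc9a2 had 15 PASs on the plus strand of chromosome 1, of which 4 were UA, 4 intron_Comp, 5 exon3 within 404 nt and 2 exon3ext. Slc41a2, a magnesium transporter, had 14 PASs, with 9 intron_Comp PASs spread from 102256 nt to 11935 nt upstream of its first exon3 PAS and 4 exon3 PASs over 2126 nt.

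**Figure D3:**
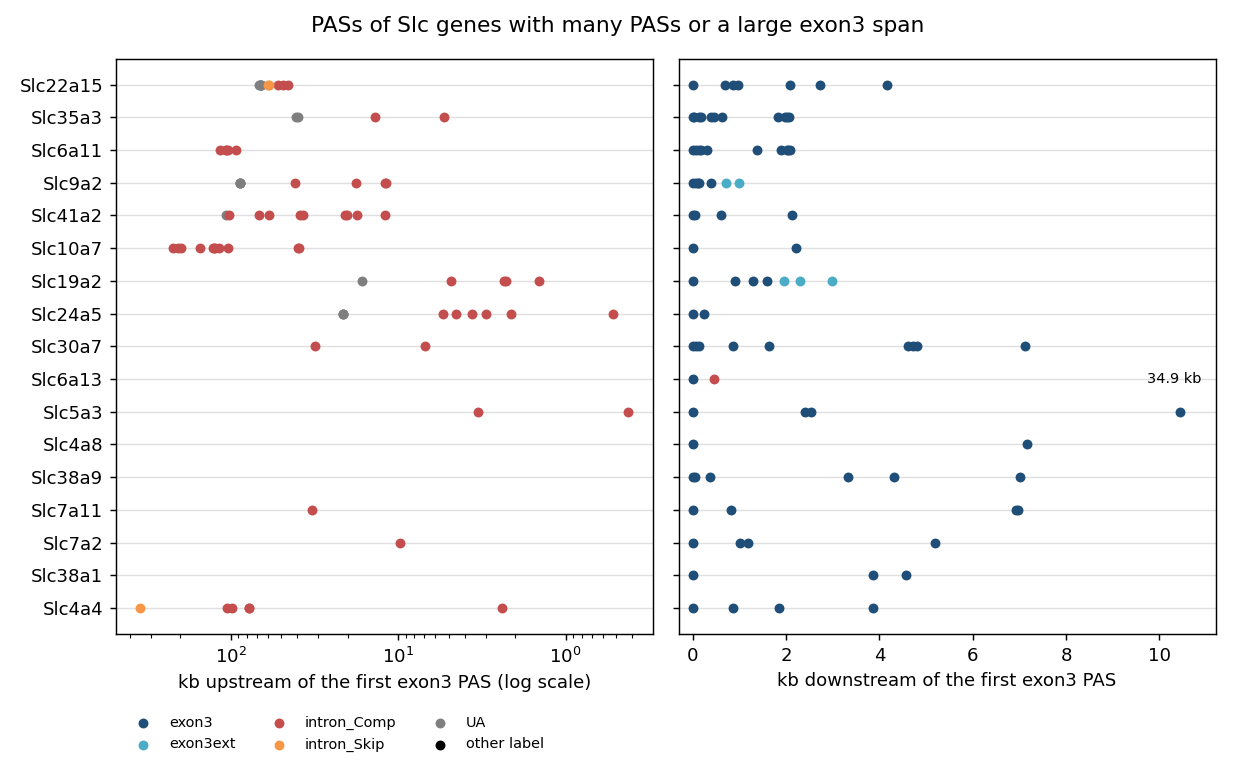
Position of each PAS relative to the first exon3 PAS of its gene, upstream on a log scale in kb (left) and downstream on a linear scale in kb (right), for 17 Slc genes among those with the most PASs or the largest exon3 span, coloured by region label. Slc10a7 shows 11 intronic PASs and 2 exon3 PASs, Slc35a3 shows 11 exon3 PASs within 2074 nt, and the distal exon3 PAS of Slc6a13 lies off the axis at 34888 nt.

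The families grouped as energy substrate transporters held 50 genes with 168 PASs. Most of these families are named for sugars, monocarboxylates or fatty acids, although single members carry other solutes. An intronic PAS was listed for 22 of the 50 genes (44%), against 37.4% of all Slc genes. Slc2a1, the glucose transporter GLUT1 of the blood-brain barrier, had 2 exon3 PASs 83 nt apart. Slc2a3, the neuronal glucose transporter GLUT3, had a single exon3 PAS at 122677842 on the minus strand of chromosome 6. Slc2a13, a proton/inositol cotransporter, had 4 intron_Comp and 3 intron_Skip PASs, the first 140664 nt upstream of the first of 2 exon3 PASs. The monocarboxylate transporters of the Slc16 family carry lactate and pyruvate. Of the 13 Slc16 genes with an exon3 PAS, 11 (84.6%) had 2 or more, against 48.4% of all Slc genes with an exon3 PAS. The share varied between families, and in Slc22 it was 4 of 13. Slc16a1 had 2 exon3 PASs 407 nt apart. Slc16a7 had an exonI PAS, an intron_Comp PAS and 2 exon3 PASs 480 nt apart. Slc16a10, an aromatic amino acid transporter, had 7 intronic PASs between 104949 nt and 38931 nt upstream of 2 exon3 PASs. Slc16a13 had 8 PASs, 4 of them exon3, a number that other genes of this class reached and none exceeded.

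Slc5a3, a sodium/inositol cotransporter, was the sole Slc gene with a PAS listed under another gene as well. The PAS at 92077272 on the plus strand of chromosome 16 was labelled exon3 under Slc5a3 and intron_Skip under Mrps6, a mitochondrial ribosomal protein gene. From there the exon3 PASs of Slc5a3 followed at 2400 nt, 2527 nt and 10446 nt, the last after a gap of 7919 nt.

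The zinc, copper and iron transporters numbered 28 genes with 97 PASs, and all 28 had an exon3 PAS. Where they had 2 or more, in 14 genes, the outermost exon3 PASs were a median of 1637 nt apart. Slc30a3, which loads zinc into synaptic vesicles of glutamatergic terminals, had a single exon3 PAS at 31388479 on the minus strand of chromosome 5. Slc30a1, a zinc exporter of the plasma membrane, had a proximal exon3 PAS and 2 distal ones, 3083 nt and 3129 nt downstream. Slc30a7, a zinc transporter of the Golgi, had 9 exon3 PASs over 7117 nt on chromosome 3. They lay in groups, with 3 within 147 nt, single ones at 863 nt and 1639 nt, another 3 from 4608 nt to 4808 nt, and the last at 7117 nt. Slc39a10, a zinc importer, had 4 intron_Comp PASs over 40 kb upstream of its single exon3 PAS, between 42977 nt and 40253 nt.

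The amino acid and peptide transporters numbered 37 genes with 93 PASs, and intronic PASs made up 24.1% of their intronic and exon3 PASs. Over all Slc genes that share was 32.0%. Slc7a5 and Slc3a2, the light and heavy subunits of a large neutral amino acid transporter, had a single exon3 PAS each. Slc7a11, the cystine/glutamate exchanger, had exon3 PASs at 50175834, 50175002, 50168909 and 50168858 on the minus strand of chromosome 3. A gap of 6093 nt separated its proximal pair from its distal pair. An intron_Comp PAS lay 32776 nt upstream. Slc7a2, a cationic amino acid transporter, had 4 exon3 PASs over 5196 nt. Slc38a1, a glutamine transporter of neurons, had 3 exon3 PASs over 4567 nt. The related Slc38a2, 111407 nt away on the same strand of chromosome 15, had 2 exon3 PASs within 49 nt and an intron_Comp PAS 9150 nt upstream. Slc38a9, an amino acid sensor of the lysosome, had 6 PASs, all exon3, over 7012 nt. Slc38a6 had 6 intronic PASs, 3 exon3 PASs and an exon3ext PAS 7952 nt beyond the last exon3 PAS, the farthest exon3ext PAS of the Slc genes.

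The mitochondrial carriers of the Slc25 family held 133 PASs in 44 genes. Of the 42 with an exon3 PAS, 23 (54.8%) had 2 or more, against 48.4% of all Slc genes with an exon3 PAS. The 23 had a median span of 505 nt, with none above 2528 nt. In the family, intronic PASs made up 20.2% of the intronic and exon3 PASs, the lowest share of the 8 role classes. Over all Slc genes that share was 32.0%. Slc25a4, an ADP/ATP carrier, had 3 exon3 PASs within 117 nt. The aspartate/glutamate carriers Slc25a12 and Slc25a13 both had 3 exon3 PASs, over 473 nt and 779 nt, and differed upstream of them. Slc25a12 had no intronic PAS and Slc25a13 had 7, between 99468 nt and 8402 nt upstream. Slc25a22, a glutamate carrier, had a single exon3 PAS. Slc25a16 had 8 exon3 PASs over 1973 nt, 7 of them within 829 nt at the distal end.

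The nucleoside and nucleotide sugar transporters were the smallest class, with 12 genes and 45 PASs, since the symbol rule takes only the a subfamily of Slc35. Slc29a1, which carries adenosine, had a single exon3 PAS. Slc35a3, a UDP-N-acetylglucosamine transporter, had 11 exon3 PASs within 2074 nt, the most of all Slc genes, in a proximal set of 7 within 634 nt and a distal set of 4 from 1830 nt on. Slc35a1, the CMP-sialic acid transporter, had 4 exon3 PASs within 784 nt, 3 intronic PASs and a UA PAS.

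The transporters of vitamins, organic ions and other solutes held 41 genes with 131 PASs. A single PAS was listed for 20 of them (48.8%, against 37.0% of all Slc genes). No exon3 PAS was listed for 9 of the 41, against 28 of all 305 Slc genes (9.18%). The gene with the most PASs of all Slc genes belongs to this class. Slc22a15, on the minus strand of chromosome 3, had 18 PASs, of which 6 were UA, 2 intron_Skip, 3 intron_Comp and 7 exon3. Its exon3 PASs lay from 101663847 to 101659686, a span of 4161 nt. Slc10a7, a relative of the bile acid transporters, had the most intronic PASs, 11 intron_Comp PASs from 221103 nt to 39377 nt upstream of the first of its 2 exon3 PASs, which lay 2217 nt apart. Slc19a2, a thiamine transporter, had 12 PASs, with 4 exon3 PASs over 1589 nt followed by 3 exon3ext PASs reaching 1395 nt beyond them. Slc44a1, a choline transporter, had a single exon3 PAS.

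Over the 44 brain transporter genes of the fixed list, 15 had a single PAS, which was an exon3 PAS in each of them. Among them were Slc1a2, Slc17a6, Slc17a7, Slc6a9, Slc12a5, Slc24a2, Slc2a3, Slc30a3, Slc7a5, Slc3a2, Slc25a22, Slc29a1 and Slc44a1. Another 25 of the 44 had 2 or more exon3 PASs, and 13 had an intronic PAS. Over all 305 Slc genes, 113 (37.0%) had a single PAS, 134 had 2 or more exon3 PASs and 114 (37.4%) had an intronic PAS. Whether the fixed list differs from the other Slc genes was not tested.

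The exon3 span is the genomic distance between the proximal-most and distal-most exon3 PAS of a gene, and it can hold an intron, as the intronic PAS between the exon3 PASs of Slc6a13 shows. Of the 277 Slc genes with an exon3 PAS, 134 (48.4%, 42.6% to 54.2%) had 2 or more, against 49.5% of other genes. The span had a median of 781.5 nt (95% interval 609 nt to 1219 nt from order statistics) in Slc genes and 818 nt in others. It was at most 250 nt in 29 Slc genes, over 250 and up to 800 nt in 39, over 800 and up to 2000 nt in 36, and over 2000 nt in 30. Class medians ran from 504 nt for the energy substrate transporters to 1637 nt for the metal transporters, with spans that overlapped widely between all classes. Neighbouring exon3 PASs of a Slc gene, 287 pairs in all, were a median of 244 nt apart, against 259 nt in other genes. Of these pairs, 32.4% lay within 100 nt (27.3% to 38.0%, against 28.6%), and 22.0% lay over 1000 nt apart (17.6% to 27.1%, against 18.2%). None lay within 24 nt, the distance at which PASs had been joined.

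**Figure D4:**
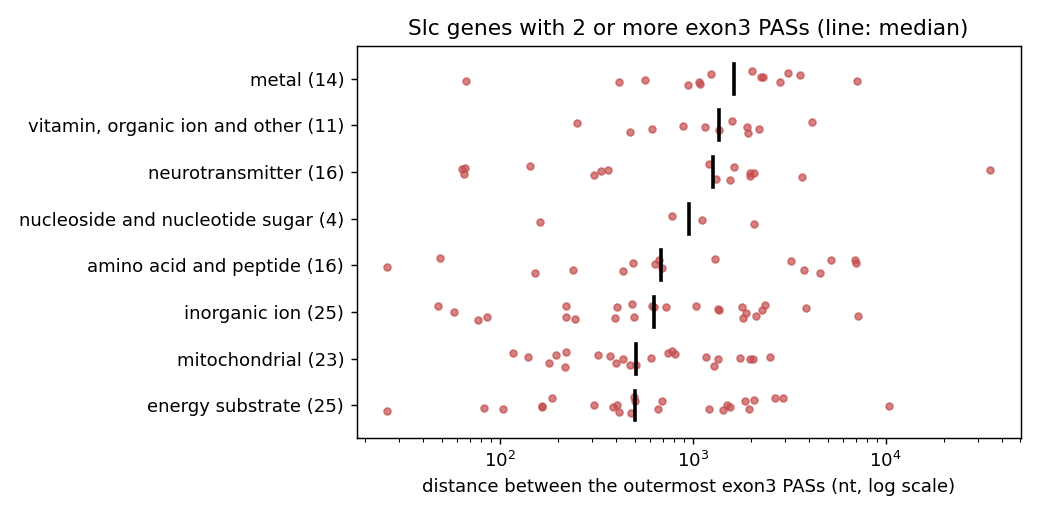
Distance between the outermost exon3 PASs (x axis, nt, log scale) of each Slc gene with 2 or more exon3 PASs, by role class with the number of genes in parentheses, and the class median as a line. Medians run from 504 nt (energy substrate) to 1637 nt (metal), and the points of all classes overlap.

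An intronic PAS was listed for 114 Slc genes (37.4%, 32.1% to 42.9%), against 33.4% of other genes, and 96 genes had both an intronic and an exon3 PAS. Intronic PASs made up 32.0% (29.0% to 35.3%) of the Slc intronic and exon3 PASs, against 32.7% in other genes. In the 96 genes, the first intronic PAS lay a median of 17852.5 nt upstream of the first exon3 PAS. The farthest was in Slc9a9, a sodium/proton exchanger of endosomes named for this extreme, at 559668 nt. More intronic than exon3 PASs were listed for 46 Slc genes (15.1%, against 14.3%). A UA PAS was listed for 30 of the 114 Slc genes with an intronic PAS (26.3%, 19.1% to 35.1%) and for 20 of the 191 without one (10.5%, 6.88% to 15.6%). In other genes these shares were 20.6% and 10.4%.

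Where a gene had a UA PAS and an exon3 PAS, the intronic PASs could be placed along the gene, from the UA PAS nearest to the gene, set to 0%, to the last exon3 PAS, set to 100%. This was possible for 82 intronic PASs in 28 Slc genes, so that PASs of 1 gene are not independent. Their median place was 62.4%, against 53.4% for 3226 PASs in 999 other genes. Of the 82, 20 lay from 0% to 25%, 10 from there to 50%, 23 from there to 75%, and 29 beyond. The stretch from 25% to 50% held 12.2% of the Slc PASs (6.76% to 21.0%) and 21.6% of those of other genes.

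**Figure D5:**
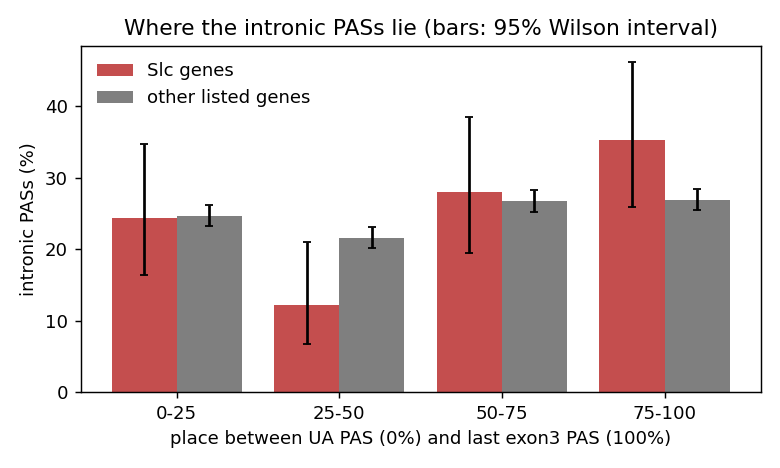
Percent of intronic PASs (y axis) by their place between the UA PAS, at 0%, and the last exon3 PAS, at 100% (x axis), for Slc genes and other genes, with 95% Wilson intervals. Slc genes hold 24.4%, 12.2%, 28.0% and 35.4% of their 82 PASs in the successive bins of 25%.

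The 28 Slc genes with no exon3 PAS included Slc6a5, the glycine transporter of inhibitory terminals in hindbrain and spinal cord, with 2 intronic PASs, and Slc18a3, the vesicular acetylcholine transporter, with a single exon53 PAS. By the reading of exon53 above, the PAS of Slc18a3 still lies in the last exon of its gene. Slc24a4 had 4 exon3ext PASs and a UA PAS, and Slc25a18 had 2 exon3ext PASs. These 4 genes were named after their entries were seen.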

How the data were processed

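The deposited table is a single list of PASs for all libraries, giving for each its gene, position, strand and region. The authors mapped the 3′READS+ reads with bowtie 2, called a PAS from reads carrying at least 2 unaligned Ts at their 5′ end, and joined PASs lying within 24 nt. The study's own statistics count PASs after a cut on read number and relative abundance, and report fewer PASs and fewer genes than this list holds. No such cut was made here. Numbers of PASs per gene and intronic shares given here are therefore not comparable with those of the study. The submitters' processing notes name mm9, and the deposited positions are given in it. The table also holds 12 columns of whole numbers whose names match no sample label. They were not used, so depth, read numbers and differences between groups were not analysed here.

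Slc genes were found by symbol. The members and lists were chosen with earlier results of these data known. The genes described singly were a fixed list of 44 brain transporters, the 10 genes with the most PASs, the largest exon3 span or the most intronic PASs, the gene with the most exon3 PASs per role, with ties broken alphabetically, and the gene with a shared PAS. Some of these genes are not reported here. The other genes named were chosen for their symbols, for an extreme value or after their entries were seen. Counts, medians and shares with 95% Wilson intervals (counting error only) were computed with Python 3.11.15, pandas 2.3.3, numpy 2.4.6 and scipy 1.17.1, and plotted with matplotlib 3.10.9. The scripts that count PASs were first tested on simulated sites. No test was run between Slc genes and other genes. A comparison of paralog proteins set out in the plan was not made, since protein sequences were not used here. Alternatives left out UA or shared PASs, changed the symbol rule, joined close PASs, counted exon3ext with exon3 or changed a denominator.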

Additional observations from a re-analysis of the deposited data

How the results depend on the processing

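Of 9 values recomputed under up to 7 settings chosen in advance, the counts of genes and PASs changed by less than 1.5 times under each setting, and the others stayed within their 95% intervals with 2 exceptions. The intronic share was 27.5% when taken over all PASs of all labels, and the share of exon3 genes with 2 or more exon3 PASs was 54.5% when exon3ext PASs were counted with exon3. Both settings add PASs by construction. The median exon3 span was 1087 nt with exon3ext PASs, 881.5 nt with the other Slc subfamilies and Slco genes added, and 779 nt without Slc6a13, a setting chosen after seeing the data. Joining PASs 24 nt or less apart changed nothing, since no PASs of a Slc gene lay that close. Leaving out shared PASs removed a single Slc PAS. Leaving out UA PASs cannot alter a value built from exon3 and intronic PASs alone. Agreement under these settings was thus largely set in advance. No paired analysis was possible because no value was taken per library, and leaving out replicates could not be done for the same reason. Depth and PAS usage were not analysed here.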

Other observations

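Of the 277 Slc genes with an exon3 PAS, 35 (12.6%, 95% Wilson interval 9.23% to 17.1%) had a PAS of another gene, UA PASs left out, on the opposite strand within 1000 nt of their last exon3 or exon3ext PAS. In other genes the share was 12.4%. Among the closest, chosen after their values were seen, were Slc30a6 and Nlrc4 at 1 nt, Slc5a10 and Grap at 3 nt and Slc48a1 and Hdac7 at 6 nt. The 2 monocarboxylate transporter genes Slc16a11 and Slc16a13 on chromosome 11 end towards each other, with their last exon3 PASs nearest at 350 nt. Each has 8 PASs, and 6 of those of Slc16a11, a gene named after its values were seen, are labelled UA.

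Some Slc genes also lie near each other. Pairs were formed from Slc genes that follow each other when only Slc genes are considered, so other genes can lie between them. Within 200000 nt there were 37 such pairs, 21 of them from the same family and 15 of these on the same strand. The same-family pairs include Slc7a6 with Slc7a6os. No such count was made for other genes. In some pairs the numbers of PASs differed. Slc9a4 had 1 and Slc9a2 had 15, and Slc31a1 had 1 and Slc31a2 had 7, named after their values were seen. In the RefSeq gene table (GRCm38.p6, used for names only), 346 protein-coding symbols follow the Slc rule, and 303 of them are among the entries used here.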
